A study of Mus musculus with 12 samples.

Results

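The collagen gene family was examined in epididymal white adipose tissue (eWAT), the fat pad beside the epididymis, of mice held at thermoneutrality (30°C) or in the cold, which was 4°C, a constant –10°C, or a –10°C/–20°C cycle. The members were the genes whose symbol names a collagen alpha chain (Col, a type number, the letter a, and a chain number) and that had a probe set with no other symbol. The rule found 39 such genes among 14860 genes tested, of which 11 encode fibrillar collagens, 6 encode type IV collagen of basement membranes, and 22 encode other types. The platform was the Affymetrix Mouse Exon 1.0 ST array, with 3 arrays for each temperature and 12 in all, and each deposited value is a gene's log2 signal after the authors' background correction and normalization. The study's methods name male C57BL/6J mice of 7 to 8 weeks at purchase, kept 5 to a cage. The labels give neither strain nor diet, and they name no mouse, litter, or cage for an array, so that a p-value speaks only of how far these arrays scatter. The cold groups spent 1 week at 18°C and 1 week at 4°C. The 4°C group stayed there, whereas the –10°C group and the –10°C/–20°C group were taken down in steps and ended with 3 weeks at their coldest setting. For the –10°C/–20°C group this alternated between –20°C in daytime and –10°C at night. The labels call the coldest group –20°C and count 5 weeks of exposure in all groups.

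Collagens are matrix proteins built from alpha chains that wind around each other into a rope-like helix. Fibrillar types I, III, and V assemble into the banded fibers that give connective tissue its strength, type IV forms the sheet of the basement membrane, and type VI forms beaded filaments that lie close to cells. In white fat, every adipocyte sits in a basement membrane within a mesh of types I, III, V, and VI, and fibroblast-like stromal cells, adipocytes, and vessel cells all contribute chains. The chains are hydroxylated and folded in the endoplasmic reticulum, exported, trimmed of their propeptides, cross-linked by lysyl oxidases, and later cleaved by metalloproteinases.

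Array medians of the log2 signal ranged from 5.19 to 5.44. Background was set at 4.52, the level that 95% of 718 olfactory receptor genes did not exceed, and 10210 to 10541 genes were above it on each array. Of the 39 collagen genes, 33 exceeded this level on all 12 arrays, Col4a6, Col9a1, and Col17a1 exceeded it on some, and Col11a1, Col24a1, and Col10a1 lay below it on all. Col19a1 shared its only probe set with Tubb4b, a tubulin gene, at 3.62 to 4.12 and was not a member, and Col22a1, Col28a1, Col6a4, and Col6a5 were not analysed here. The labelled tissue carried its markers, since Adipoq, the adipocyte hormone adiponectin, stood at 12.10 to 12.35 on all 12 arrays. Of 5 markers of the adjoining epididymis and testis, Lcn5, Lcn8, and Defb1 lay below background on all arrays, Tnp1 exceeded it on 1 array, and Prm1 stood at 5.11 to 5.83. Cartilage and bone markers Acan, Matn1, Matn3, and Ibsp lay below background on all arrays, and Comp stood at 4.88 to 5.16. The value of a probe set was not set against that of another probe set, because signal per molecule differs between them.

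With –10°C/–20°C against 30°C, 14 of the 39 collagen genes fell and none rose. They were 6 fibrillar genes (Col1a1, Col1a2, Col3a1, Col5a1, Col5a2, and Col5a3), 2 of type IV (Col4a1 and Col4a5), all 4 measured genes of type VI (Col6a1, Col6a2, Col6a3, and Col6a6), and both multiplexins (Col15a1 and Col18a1). A gene is said to rise or fall where limma gave an adjusted p under 0.05 over all genes tested, and by this rule 35.9% of the collagen genes fell, against 11.0% of all genes, whereas 7.19% of all genes rose. The share was 54.5% of the 11 fibrillar genes, 33.3% of the 6 type IV genes, and 27.3% of the 22 others. The median log2 difference was −0.17 over the 39 genes, −0.77 over the fibrillar genes, −0.33 over type IV, and −0.10 over the others, beside −0.03 over all genes. All 14 genes exceeded background on every array. The 3 arrays of –10°C/–20°C lay below the 3 arrays of 30°C in 14 of the 39 collagen genes, against 18.9% of all genes. These were the same 14 genes, which the test on these arrays had picked. In eWAT as a whole, fewer cells of a type and less RNA per cell cannot be told apart.

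**Figure D1:**
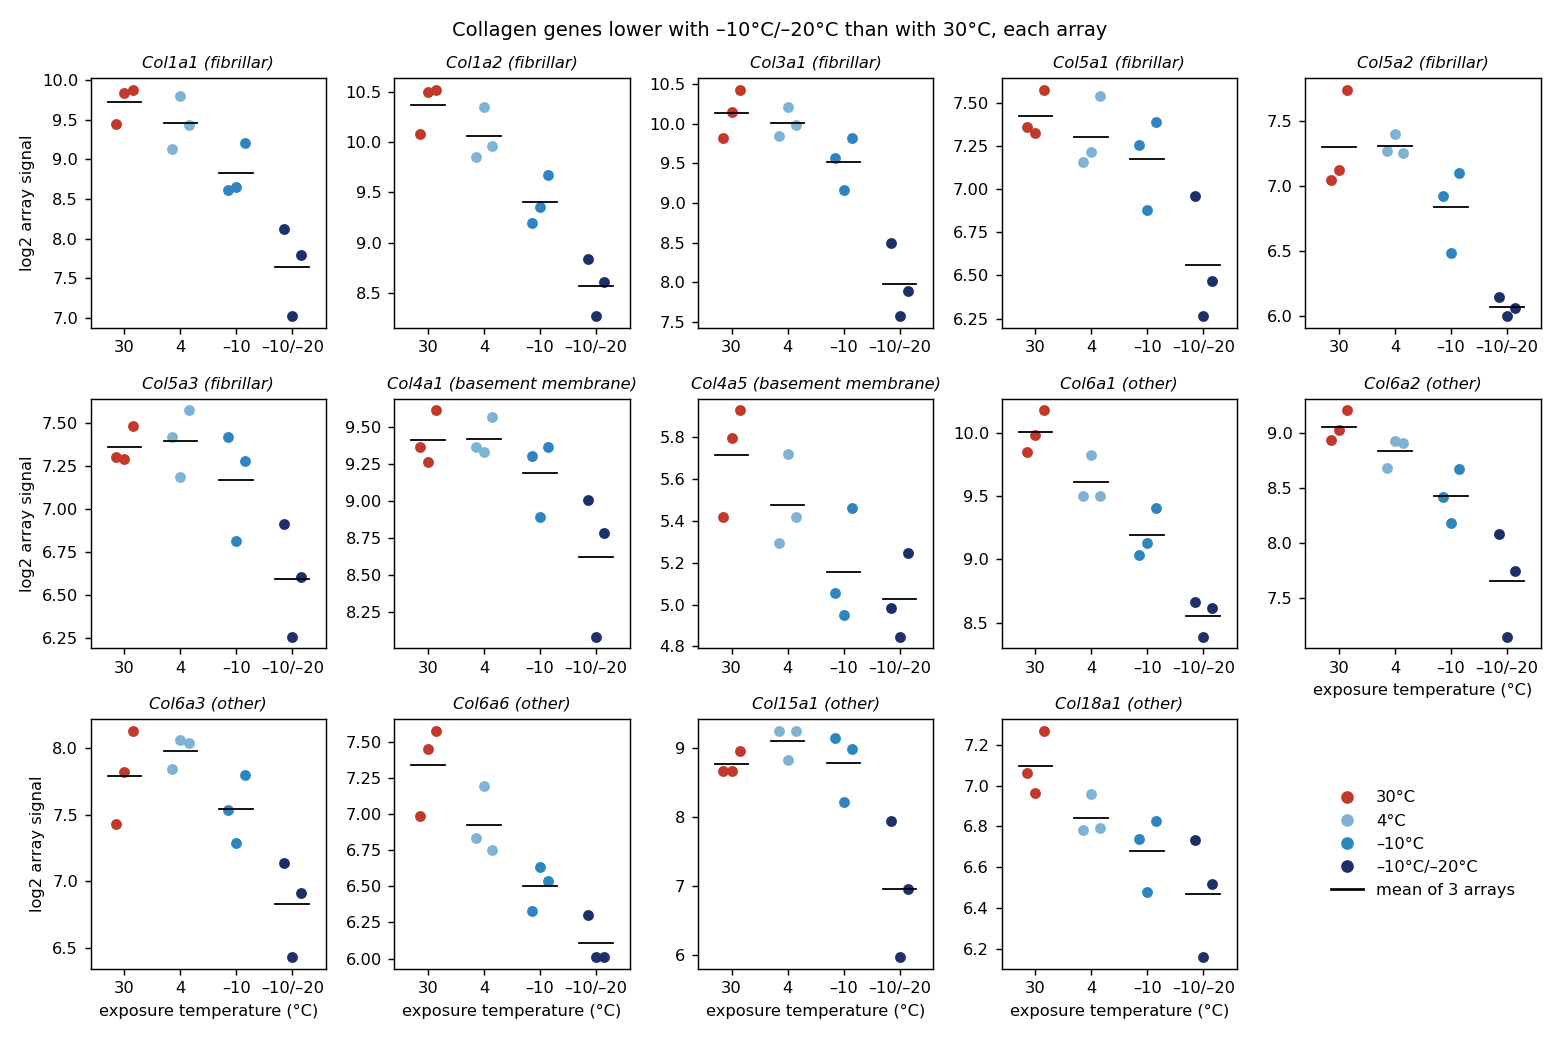
Log2 array signal (y axis, own scale per gene) of the 14 collagen genes that fell with –10°C/–20°C against 30°C, by exposure temperature (x axis, °C), with each point an array and each line the mean of 3 arrays. In all 14 panels the –10°C/–20°C points lie below the 30°C points, with Col3a1 at 7.57 to 8.49 with –10°C/–20°C and at 9.83 to 10.43 with 30°C.

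The largest log2 differences of the family with –10°C/–20°C against 30°C were those of Col3a1 and Col1a1. Col3a1 (probe set 6749142), whose product forms pliable fibers with type I, had log2 signals of 8.49, 7.57, and 7.89 with –10°C/–20°C, against 9.83, 10.15, and 10.43 with 30°C. The groups did not overlap, and the lowest 30°C array lay above the highest array of the coldest group by more than the range within either. With –10°C/–20°C the mean was 7.98 ± 0.47, against 10.14 ± 0.30 with 30°C (SD, n = 3 each), a log2 difference of −2.15 (SE 0.24, adjusted p = 0.00016) or a 4.45-fold lower signal. With 4°C and –10°C it averaged 10.02 ± 0.18 and 9.52 ± 0.33.

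Both chains of type I collagen, the main fibrillar collagen of connective tissue, fell together. Col1a1 (probe set 6783685) had 8.12, 7.02, and 7.79 with –10°C/–20°C, against 9.45, 9.84, and 9.88 with 30°C, a log2 difference of −2.08 (SE 0.28, adjusted p = 0.00042) or 4.22-fold. Col1a2 (probe set 6943818) had 8.84, 8.27, and 8.61 with –10°C/–20°C, against 10.08, 10.50, and 10.52 with 30°C, a log2 difference of −1.79 (SE 0.19, adjusted p = 0.00013) or 3.46-fold. In neither gene did the groups overlap, and in both –10°C/–20°C replicate 2 was the lowest array of all 12. Between these extremes the means of both genes were ordered by temperature, with Col1a1 at 9.45 ± 0.33 with 4°C and 8.82 ± 0.33 with –10°C, and Col1a2 at 10.06 ± 0.26 with 4°C and 9.41 ± 0.24 with –10°C.

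The 3 chains of type V collagen, a minor fibrillar type that nucleates type I fibrils, also fell, by less. Col5a2 (probe set 6758414) had 6.15, 5.997, and 6.06 with –10°C/–20°C, against 7.05, 7.12, and 7.74 with 30°C, with a log2 difference of −1.23 (SE 0.19, adjusted p = 0.00096). Col5a1 (probe set 6875920) had 6.96, 6.26, and 6.47 with –10°C/–20°C, against 7.36, 7.33, and 7.58 with 30°C, with a log2 difference of −0.86 (SE 0.19, adjusted p = 0.0083). Col5a3 (probe set 6993713) had 6.91, 6.25, and 6.61 with –10°C/–20°C, against 7.31, 7.29, and 7.48 with 30°C, with a log2 difference of −0.77 (SE 0.19, adjusted p = 0.015). None of the 3 overlapped, but for Col5a1 and Col5a3 the highest array of the coldest group lay closer to the lowest 30°C array than to the lowest array of its own group. The other 5 fibrillar genes, Col2a1, Col11a1, Col11a2, Col24a1, and Col27a1, had log2 differences between −0.05 and 0.10, and all 5 overlapped.

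Where the start of a fallen gene is annotated, the bases before it are shown for 3 of the genes with the largest or most stable change, from types III, I, and VI. The sequences are the 250 bases before the annotated start in the RefSeq table of GRCm38.p6, given 5′ to 3′ on the strand of the gene, in lower case, with capitals for every CCAAT box, TATA box (TATAAA), and GC box (GGGCGG) on either strand. Col3a1 lies on the plus strand at chr1:45311288-45311537, Col1a2 on the plus strand at chr6:4505368-4505617, and Col6a1 on the minus strand at chr10:76726045-76726294.
Col3a1: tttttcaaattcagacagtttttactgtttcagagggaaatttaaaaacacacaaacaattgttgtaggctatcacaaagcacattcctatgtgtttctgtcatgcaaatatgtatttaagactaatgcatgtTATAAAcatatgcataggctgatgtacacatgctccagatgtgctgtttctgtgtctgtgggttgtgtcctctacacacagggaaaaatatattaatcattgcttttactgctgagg
Col1a2: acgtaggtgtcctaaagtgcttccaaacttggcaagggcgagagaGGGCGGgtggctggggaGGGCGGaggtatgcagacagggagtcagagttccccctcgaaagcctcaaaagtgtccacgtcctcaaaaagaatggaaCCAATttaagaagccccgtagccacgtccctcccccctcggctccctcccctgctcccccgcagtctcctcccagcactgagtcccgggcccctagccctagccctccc
Col6a1: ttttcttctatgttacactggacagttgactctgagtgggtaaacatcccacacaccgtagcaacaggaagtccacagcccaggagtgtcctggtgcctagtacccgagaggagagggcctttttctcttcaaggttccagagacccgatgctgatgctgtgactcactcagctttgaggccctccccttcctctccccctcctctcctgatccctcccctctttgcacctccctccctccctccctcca
The Col3a1 stretch held 1 TATAAA, the Col1a2 stretch held 1 CCAAT and 2 GGGCGG, and the Col6a1 stretch held none of these letters. The same table holds longer windows (250 bases before to 50 bases after a start), 34 of them for the 31 matched collagen genes. CCAAT or its reverse ATTGG occurred in 12 of these 34 and in 37.4% of all 32851 windows. GGGCGG or CCGCCC occurred in 21 of the 34 and in 35.7% of all windows, and TATAAA or TTTATA in 5 and in 13.6%. Among the 12 fallen genes matched, CCAAT occurred in 5, GGGCGG in 8, and TATAAA in 1. None of these motifs contains another, and a match is a description of the letters, not of a bound site. Col12a1, Col14a1, Col1a1, Col26a1, Col2a1, Col4a3, Col5a2, and Col9a3 are named only.

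All 4 measured chains of type VI collagen fell. Col6a1 (probe set 6775185), a chain of the common filament, had 8.66, 8.39, and 8.62 with –10°C/–20°C, against 9.85, 9.99, and 10.18 with 30°C, and its log2 difference of −1.45 (SE 0.14) had the smallest adjusted p of the family at 6.3e-05. Col6a2 (probe set 6775182), its neighbour on the chromosome and partner in the filament, had 8.09, 7.15, and 7.75 with –10°C/–20°C, against 8.94, 9.02, and 9.21 with 30°C (log2 difference −1.40, SE 0.21, adjusted p = 0.00087). Col6a3 (probe set 6760642), the long chain whose end is released as endotrophin, had 7.14, 6.43, and 6.92 with –10°C/–20°C, against 7.43, 7.82, and 8.13 with 30°C (log2 difference −0.97, SE 0.21, adjusted p = 0.0079). The 3 pairs of groups did not overlap, and the spread of Col6a1 within the coldest group was the narrowest, at an SD of 0.15 compared with 0.47 for Col6a2 and 0.36 for Col6a3. Col6a6 (probe set 6998494), a chain that resembles the product of Col6a3, had 6.30, 6.01, and 6.01 with –10°C/–20°C, against 6.99, 7.45, and 7.57 with 30°C (log2 difference −1.23, SE 0.17, adjusted p = 0.00054). It did not overlap either.

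Type IV collagen, the network of the basement membrane, moved less evenly. Its genes lie head to head in pairs. By the starts annotated in RefSeq, Col4a1 and Col4a2 lie on opposite strands with starts 21 bases from each other. The start of each lies just inside the other gene, so that their 5′ ends overlap, and their windows share 78 bases. The starts of Col4a6 and Col4a5 are 1343 bases apart. Col4a1 (probe set 6980364), a chain of the common network, had 9.01, 8.08, and 8.78 with –10°C/–20°C, against 9.36, 9.26, and 9.61 with 30°C (log2 difference −0.79, SE 0.21, adjusted p = 0.025). Its partner Col4a2 had 8.32, 7.62, and 7.98 with –10°C/–20°C, against 8.29, 8.25, and 8.55 with 30°C (log2 difference −0.39, SE 0.16, 95% interval −0.75 to −0.03, adjusted p = 0.13). The arrays of Col4a1 were separated and those of Col4a2 overlapped, and the difference between the changes of this pair was not tested. Col4a5 (probe set 7014178), the X-linked chain, had 4.98, 4.84, and 5.25 with –10°C/–20°C, against 5.42, 5.80, and 5.93 with 30°C (log2 difference −0.69, SE 0.18, adjusted p = 0.021). Its values were close to background, and its neighbour Col4a6 had 4.58, 4.57, and 4.66 with –10°C/–20°C, against 4.60, 4.95, and 5.03 with 30°C (log2 difference −0.26, SE 0.12, adjusted p = 0.17). Col4a3 and Col4a4, which pair with Col4a5 in the network of kidney and lung, had log2 differences of −0.05 and −0.17 and overlapped.

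Both multiplexins, collagens of the basement membrane zone that carry heparan or chondroitin sulfate, fell. Col15a1 (probe set 6913269), which bridges the basement membrane to the fibers, had 7.94, 5.97, and 6.96 with –10°C/–20°C, against 8.67, 8.66, and 8.96 with 30°C. Its arrays did not overlap but were the most widely spread of any collagen gene in the coldest group (mean 6.96 ± 0.99 with –10°C/–20°C, 8.76 ± 0.17 with 30°C, SD, n = 3 each), and its log2 difference of −1.80 had an SE of 0.40 (95% interval −2.69 to −0.92, adjusted p = 0.0089). Col18a1 (probe set 6775201), the source of endostatin, had 6.73, 6.16, and 6.52 with –10°C/–20°C, against 7.06, 6.96, and 7.27 with 30°C (log2 difference −0.63, SE 0.15, adjusted p = 0.013).

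**Figure D2:**
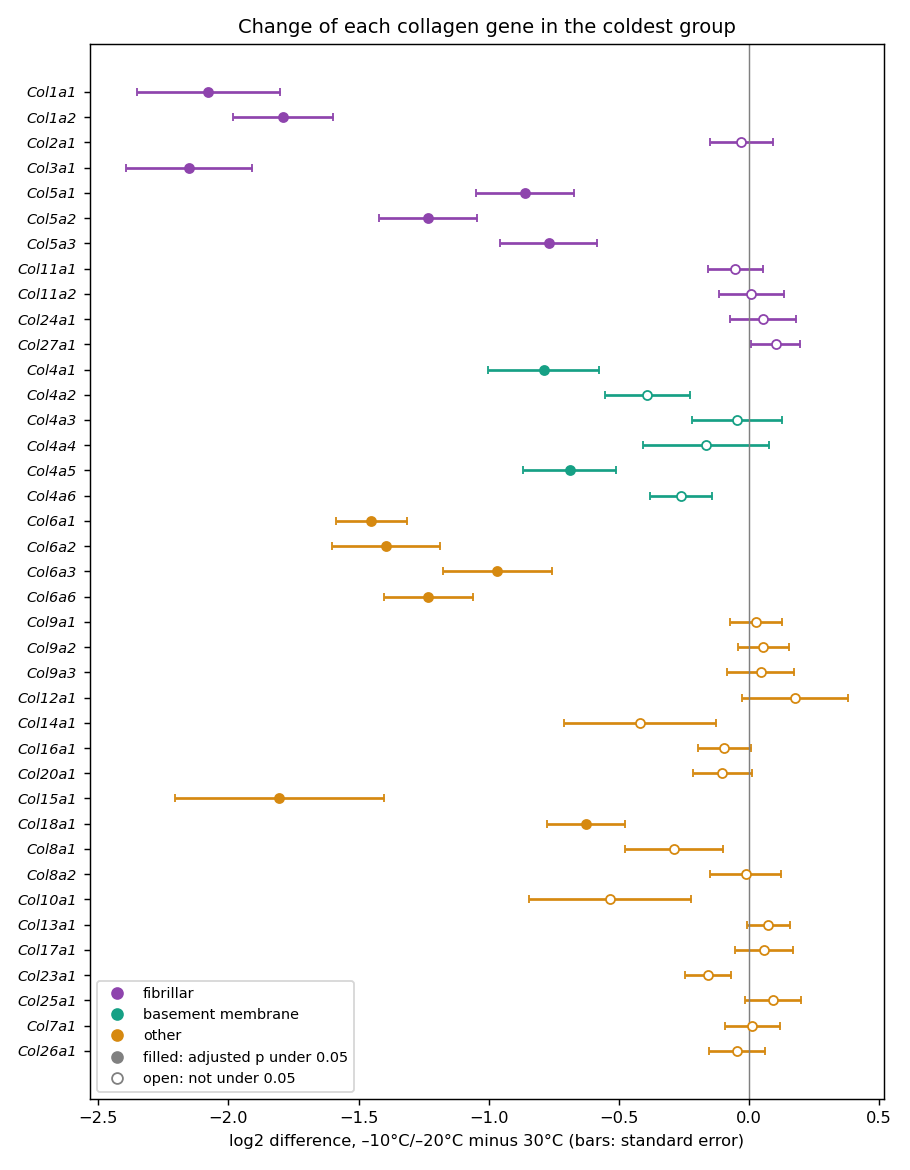
Log2 difference of –10°C/–20°C minus 30°C (x axis) for each of the 39 collagen genes (y axis, by class and color), with bars of 1 standard error and filled points for an adjusted p under 0.05. The 14 filled points run from −2.15 (Col3a1) to −0.63 (Col18a1), and the 25 open points from −0.53 (Col10a1) to 0.18 (Col12a1).

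The remaining 25 collagen genes did not pass the test with –10°C/–20°C against 30°C. Apart from Col4a2 and Col4a6, the larger differences were those of Col10a1, a cartilage collagen below background on all arrays (−0.53), Col14a1 (−0.42), and Col8a1 (−0.29). The other 20 had log2 differences between −0.17 and 0.18, with 95% intervals that reached no further than −0.70 and 0.63. With 3 arrays per group, a change within a gene's own interval was not excluded. They included Col12a1 (0.18) and Col16a1, which decorate fibrils, Col8a2, a partner of Col8a1 in vessel walls, the 3 type IX genes, the transmembrane collagens Col13a1, Col17a1, Col23a1, and Col25a1, and Col7a1, the anchoring fibril of skin.

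The first cold step changed no collagen gene past the test. With 4°C against 30°C, limma called 0 of the 39, against 0.942% of all genes lower and 2.1% higher. The methods' unpaired test with adjustment called 0 of all 14860 genes, and so could call no collagen gene. At an unadjusted p under 0.05 there were 2 genes by limma, Col6a1 (log2 difference −0.40, SE 0.14, adjusted p = 0.18) and Col6a6 (−0.41, SE 0.17, adjusted p = 0.29), and none by the methods' test. Over all 14860 genes, 2070 had an unadjusted p under 0.05 by limma and 1611 by the methods' test. Median log2 differences were −0.004 over the collagen genes and 0.01 over all genes. Col6a1 had 9.50, 9.83, and 9.50 with 4°C, all below its 3 arrays of 30°C, as did Col6a2, Col18a1, and Col23a1, so that 4 of 39 were separated (7.56% of all genes). Among the genes that fell in the coldest group, Col5a2, Col4a1, and Col5a3 had log2 differences of 0.00, 0.01, and 0.03 with 4°C, and Col6a3 and Col15a1 had 0.19 and 0.34, none past the test.

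With –10°C against 30°C, 3 of the 39 collagen genes fell, against 3.03% of all genes, and none rose (5.3% of all genes). Col1a2 had 9.20, 9.36, and 9.67 with –10°C and a log2 difference of −0.96 (SE 0.19, adjusted p = 0.011). Col6a1 had 9.04, 9.13, and 9.40 with –10°C and a log2 difference of −0.82 (SE 0.14, adjusted p = 0.0047). Col6a6 had 6.33, 6.63, and 6.54 with –10°C and a log2 difference of −0.84 (SE 0.17, adjusted p = 0.012). In these 3 genes, as in 5 others, the –10°C arrays lay below the 30°C arrays (8 of 39, against 10.3% of all genes), and Col1a1, with 8.61, 8.66, and 9.21, was separated with a log2 difference of −0.90 that did not pass (adjusted p = 0.075). The count rests on single arrays: it was 1 without –10°C replicate 1 and 5 without –10°C/–20°C replicate 2, and 2 arrays at 30°C and 2 at 4°C carry names of another form in the study's material, of unstated meaning, with which as a block the count was 1. Over all 14860 genes, 263, 437, and 130 fell in the same order, against 451 with all arrays and no block. Between –10°C and 4°C, limma called 0 of 39, against 0.0336% of all genes lower and 0.00673% higher, although 7 of 39 were separated (5.64% of all genes). At an unadjusted p under 0.05 there were 6 of 39 by limma, against 1065 of all 14860 genes, and 1 by the methods' test, against 1188. The methods' test with adjustment called 0 of all 14860 genes, and so could call no collagen gene.

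The last step, from –10°C to –10°C/–20°C, brought 6 collagen genes past the test, all lower with –10°C/–20°C against –10°C, against 5.14% of all genes lower and 2.02% higher. Col15a1 had 7.94, 5.97, and 6.96 with –10°C/–20°C, against 9.14, 8.22, and 8.99 with –10°C, a log2 difference of −1.83 (SE 0.40, adjusted p = 0.021). Col3a1 had 8.49, 7.57, and 7.89 with –10°C/–20°C, against 9.57, 9.17, and 9.82 with –10°C, a log2 difference of −1.54 (SE 0.24, adjusted p = 0.0047). In neither did the groups overlap. Col1a1 changed by −1.18 (adjusted p = 0.028), Col1a2 by −0.83 (adjusted p = 0.026), Col5a2 by −0.77 (adjusted p = 0.034), and Col6a1 by −0.64 (adjusted p = 0.019). In 10 of 39 genes all –10°C/–20°C arrays lay below all –10°C arrays (20.3% of all genes). The count past the test, too, rests on single arrays, since it was 3 without –10°C replicate 1, 1 without –10°C replicate 3, 1 without –10°C/–20°C replicate 2, 2 without –10°C/–20°C replicate 3, and 10 without –10°C/–20°C replicate 1. Over all 14860 genes, 254, 350, 268, 386, and 738 fell in the same order, against 764 with all arrays.

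With –10°C/–20°C against 4°C, 13 of the 39 fell, against 7.24% of all genes, and none rose (2.53% of all genes). In 16 of 39 all –10°C/–20°C arrays lay below all 4°C arrays, as in 17.4% of all genes. This comparison shares its –10°C/–20°C arrays with the comparison against 30°C. It included 12 of the 14 genes named above, with log2 differences of −2.15 for Col15a1, −2.03 for Col3a1, −1.81 for Col1a1, −1.48 for Col1a2, and −1.15 for Col6a3, and in addition Col4a2 (−0.58, SE 0.16, adjusted p = 0.046), whose arrays stood at 8.53, 8.46, and 8.67 with 4°C. Col4a5 (−0.45) and Col18a1 (−0.37) did not pass (adjusted p = 0.16 for each). Without –10°C/–20°C replicate 2 the count past the test was 8, with 610 of all 14860 genes lower.

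**Figure D3:**
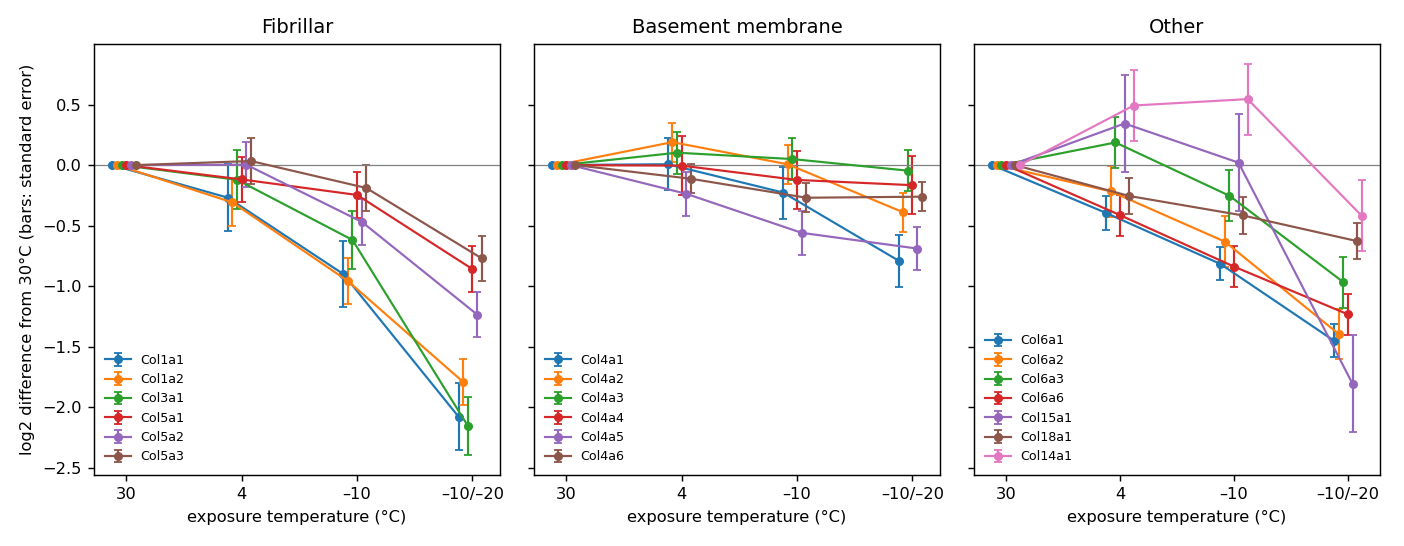
Log2 difference of the group mean from the 30°C mean (y axis, bars of 1 standard error) against exposure temperature (x axis, °C) for fibrillar, basement membrane, and other collagen genes. Col1a1 and Col1a2 are lower at each colder step, whereas Col15a1 and Col14a1 lie above their 30°C means with 4°C and –10°C and below them with –10°C/–20°C. Neither was above 30°C past the test, and Col15a1 with –10°C was above it by only 0.02 (SE 0.40).

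The group means of the members did not all follow the same order over the 4 temperatures, and shapes were not tested between genes. In 10 of 39 genes the mean was lower at each colder step, as it was in 11.3% of all genes, and 9 of these were among the 14 that fell in the coldest group: Col1a1, Col1a2, Col3a1, Col5a1, Col4a5, Col6a1, Col6a2, Col6a6, and Col18a1. The mean was lowest in the coldest group in 22 of 39 (41.3% of all genes). By the F-test over the 4 groups 11 of 39 differed, against 17.1% of all genes, and these 11 were all among the 14. Col6a1 spread its change over the steps, with means of 10.01 ± 0.16 at 30°C, 9.61 ± 0.19 at 4°C, 9.19 ± 0.19 at –10°C, and 8.55 ± 0.15 at –10°C/–20°C. Col15a1 stood at 8.76 ± 0.17, 9.11 ± 0.24, 8.78 ± 0.49, and 6.96 ± 0.99 in the same order, so that its whole change lay in the last step. Col14a1, which binds fibril surfaces, was 0.49 above 30°C with 4°C and 0.54 above it with –10°C, neither past the test (adjusted p = 0.54 and 0.36), with –10°C replicate 3 at 8.66 and the other –10°C arrays at 7.57 and 7.49. In a test of the last step minus the change to –10°C, chosen after the values were seen, no collagen gene passed after adjustment. Col14a1 had −1.51 (SE 0.51, unadjusted p = 0.013, adjusted p = 0.15) and Col15a1 had −1.85 (SE 0.70, unadjusted p = 0.022, adjusted p = 0.20). Of all 14860 genes, 361 passed this test. That share is so small that none among 39 does not set the collagen genes apart from the rest.

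**Figure D4:**
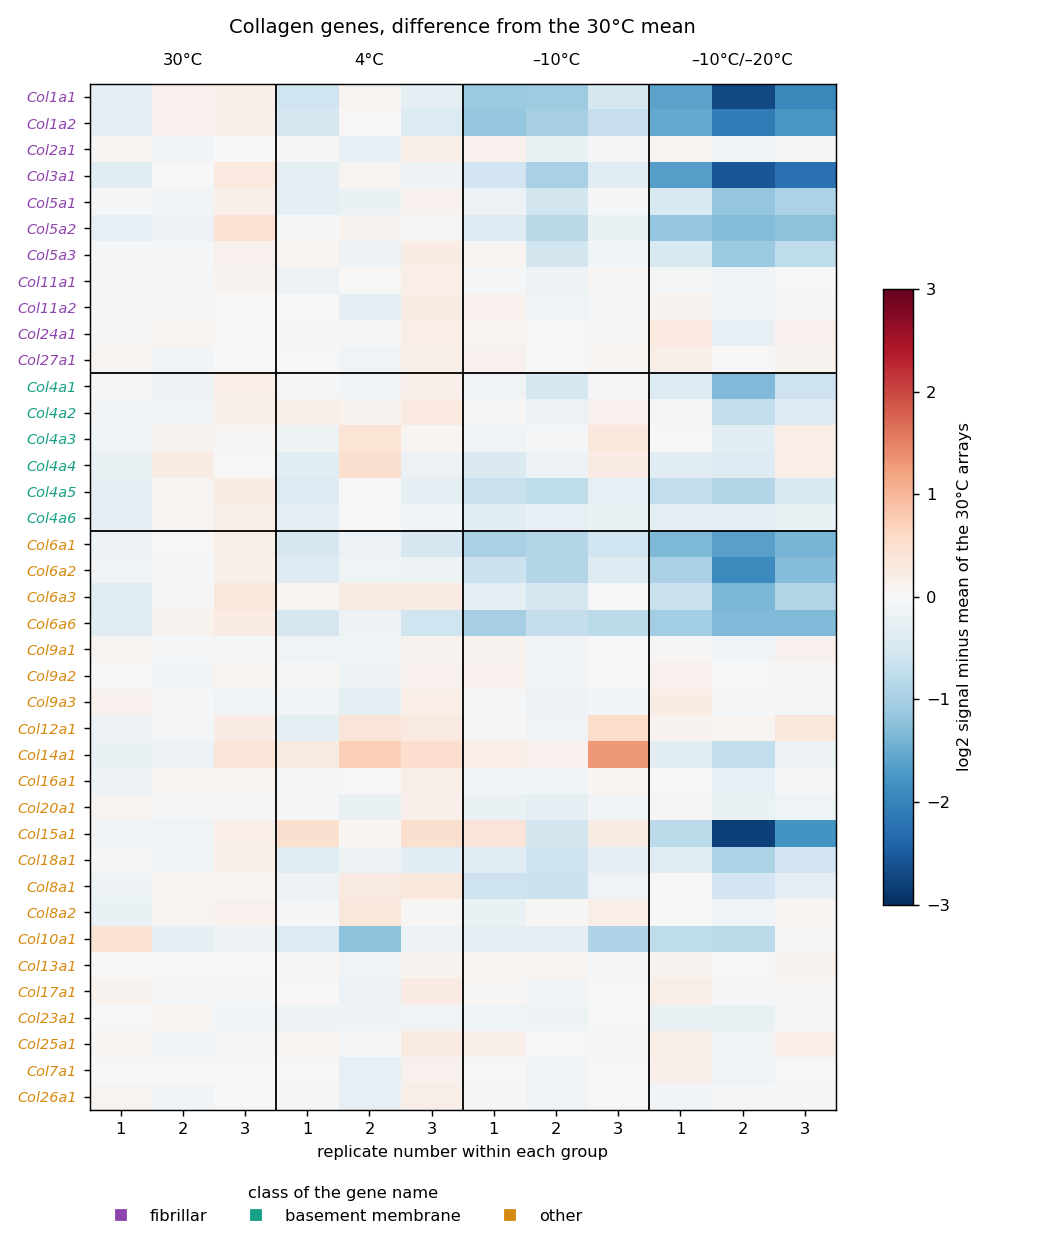
Log2 signal minus the mean of the 30°C arrays (color) for each of the 39 collagen genes (rows, by class) on each of the 12 arrays (columns, by temperature and replicate number). The deepest blue lies in Col1a1, Col1a2, Col3a1, and Col15a1 with –10°C/–20°C, and replicate 2 is the lowest of the 3 coldest arrays in 37 of 39 genes.

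Among the –10°C/–20°C arrays, replicate 2 was the lowest in 37 of 39 collagen genes but in 39.9% of all genes, and among the –10°C arrays replicate 2 was the lowest in 29 of 39 but in 36.1% of all genes. Among the 4°C arrays replicate 3 was the lowest in 2 of 39 but in 44.5% of all genes, and among the 30°C arrays replicate 3 was the highest in 22 of 39 and in 53.8% of all genes. Averaged over all 39 collagen genes, the log2 signal relative to the 30°C mean was −0.34, −0.73, and −0.44 with –10°C/–20°C and −0.08, −0.02, and 0.10 with 30°C. Over the 14 fallen genes it was −0.94, −1.65, and −1.23 with –10°C/–20°C and −0.19, −0.02, and 0.21 with 30°C. Over the 25 other genes it was −0.01, −0.22, and 0.01 with –10°C/–20°C and −0.02, −0.02, and 0.04 with 30°C. The fallen and other genes were divided by the test on these same arrays, so that a gap between their averages follows from that choice. Without –10°C/–20°C replicate 2, 11 of 39 fell with –10°C/–20°C against 30°C (1188 of all 14860 genes), and Col4a1, Col4a5, and Col5a3 did not pass. Without 30°C replicate 3 it was 10 (1143 of all genes), with Col18a1 lost in addition. With the methods' unpaired test, adjusted over all genes, it was 2, Col1a2 and Col6a1, and 369 of all genes fell, against 1639 by limma. The 8 arrays of the other name form, an alternative chosen after the data were seen, hold 1 array of 30°C. With them alone, the median log2 difference was −0.19 over the collagen genes and −0.07 over all genes.

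**Figure D5:**
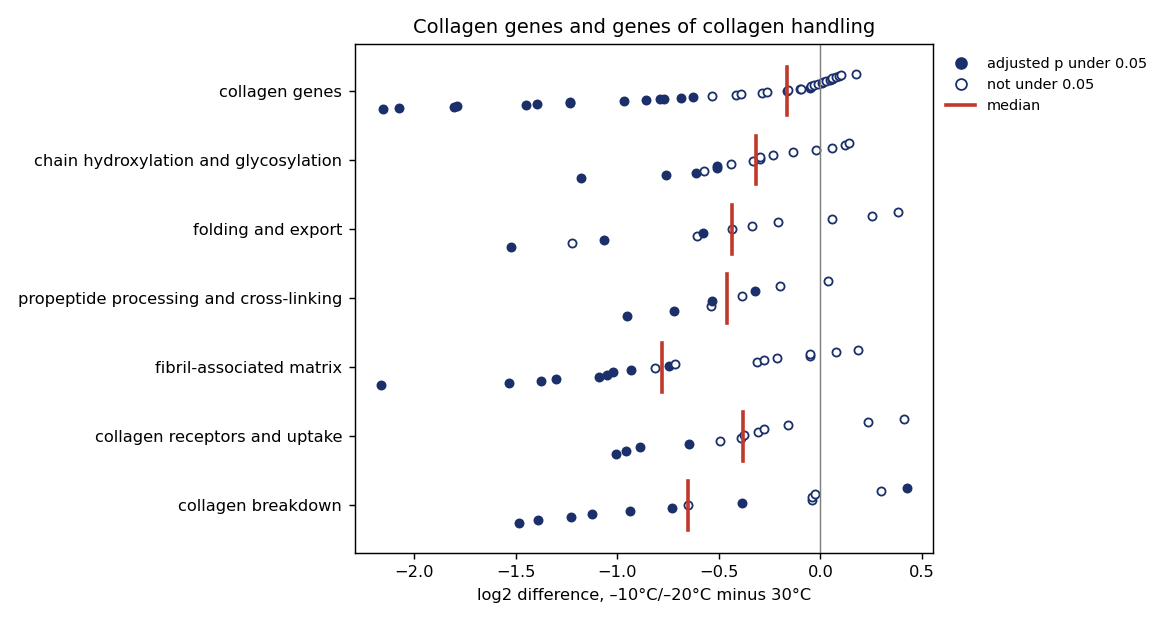
Log2 difference of –10°C/–20°C minus 30°C (x axis) for the collagen genes and 6 lists of genes that make, assemble, bind, or break down collagen (y axis), each point a gene, filled for an adjusted p under 0.05, with a red line at the median. The medians run from −0.17 for the collagen genes to −0.78 for the fibril-associated matrix.

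Genes that make, assemble, bind, and break down collagen fell more often than they rose. Over 6 lists with 78 measured genes (of 91 listed), 32 fell and 1 rose with –10°C/–20°C against 30°C, with a median of −0.44, beside the 11.0% of all genes that fell. Among 16 genes of chain hydroxylation and glycosylation 5 fell and none rose (median −0.32), namely P3h2, a prolyl 3-hydroxylase that acts on type IV (−1.18, SE 0.13), Crtap, a partner of prolyl 3-hydroxylase (−0.76), Pgghg, which removes glucose from hydroxylysine sugars (−0.61), Ppib, a prolyl isomerase (−0.51), and P4hb, the shared subunit of prolyl 4-hydroxylase (−0.51). Of the catalytic prolyl 4-hydroxylases, P4ha1 had −0.57 (adjusted p = 0.051) and P4ha2 0.14. Among 11 genes of folding and export 3 fell and none rose (median −0.44), namely the membrane-bound transcription factors Creb3l1 (−1.52, SE 0.20) and Creb3l2 (−1.07) and Tmem39a (−0.58), whose counterpart in Caenorhabditis elegans is needed for collagen secretion. Creb3l1, known to drive type I collagen genes in bone, had 6.61, 6.40, and 6.17 with –10°C/–20°C, against 7.96, 7.69, and 8.10 with 30°C, with no overlap. Among 8 genes of propeptide processing and cross-linking 4 fell and none rose (median −0.46), namely Loxl2, a lysyl oxidase of type IV (−0.95), Bmp1, the C-propeptidase (−0.72), Pcolce2, its enhancer (−0.54), and Loxl3 (−0.32). The calls of Loxl3 and Pcolce2 were lost in 15 and 11 of 23 alternatives, among them the centring of each array on its median.

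The fibril-associated matrix had the lowest median of the 6 lists, with 9 of 18 genes fallen, none risen, and a median of −0.78. Prelp, a leucine-rich proteoglycan that ties collagen to basement membrane, had 9.58, 9.57, and 9.40 with –10°C/–20°C, against 11.84, 11.58, and 11.62 with 30°C (log2 difference −2.16, SE 0.19, adjusted p = 4.3e-05). Lum, a regulator of fibril spacing, fell by 1.53 on the log2 scale, Dpt, which speeds fibril assembly, fell by 1.38, and Thbs2, a matricellular protein, fell by 1.30, a call lost in 5 of 23 alternatives. Among the other members were Fn1 (−0.72, adjusted p = 0.053), Dcn (−0.28), and Tnxb (−0.05), which did not pass.

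Of 12 collagen receptors and uptake genes, 4 fell and none rose (median −0.38), with Antxr2, a receptor of type IV and type VI collagen (−1.005, SE 0.14), Mrc1, a macrophage lectin that takes up collagen (−0.96), Ddr2, a kinase that senses fibrillar collagen (−0.89), and Lair1, an inhibitory receptor of leukocytes (−0.65). Lair1 exceeded background on 1 of the 3 coldest arrays, and its call was lost in 7 of 23 alternatives. Of 13 genes of collagen breakdown, 7 fell and 1 rose (median −0.65). The gelatinases Mmp9 (−1.48) and Mmp2 (−1.39), the inhibitor Timp1, and the lysosomal protease Ctsk (−1.13, a call lost in 7 of 23 alternatives) fell. Timp1 was below background on all 3 coldest arrays, and its signal was at least 1.80-fold lower there. Timp3, a matrix-bound inhibitor of the metalloproteinases, was the gene that rose, with 10.83, 10.54, and 10.44 with –10°C/–20°C, against 10.05, 10.27, and 10.22 with 30°C (log2 difference 0.43, SE 0.13, adjusted p = 0.039), a call lost in 13 of 23 alternatives. With –10°C against 30°C, 7 of the 78 genes fell and none rose, against 3.03% of all genes lower and 5.3% higher.

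Markers of the cells that eWAT holds were read in the same comparison, –10°C/–20°C against 30°C, in which 11.0% of all genes fell and 7.19% rose. Of 8 stromal progenitor markers 1 fell, Dpt, which is also in the fibril-associated list, and none rose (median −0.36), with Pdgfra at 7.76, 8.17, and 8.47 with –10°C/–20°C and 8.30, 8.74, and 9.08 with 30°C (log2 difference −0.57, SE 0.22, adjusted p = 0.11). Averaged over this list, the log2 signal relative to the 30°C mean was −0.49 to −0.34 with –10°C/–20°C and −0.11 to 0.13 with 30°C. Of 6 macrophage markers 5 fell (median −1.07), with list averages of −1.33 to −0.81 with –10°C/–20°C and −0.14 to 0.18 with 30°C, and the macrophage gene Mrc1 is also in the receptor list. Of 6 mesothelial markers Wt1 fell (−0.42, list median −0.40), and of 7 mural markers none passed the test (median 0.19). Of 8 endothelial markers Kdr rose (0.72) and none fell past the test (median 0.09). In 3 of the 8 the difference was negative, the lowest that of Tek (−0.40), with 7.51, 7.76, and 7.90 with –10°C/–20°C, against 8.02, 8.03, and 8.32 with 30°C. Of 6 adipocyte markers Lep fell and Pparg rose (0.50, a call lost in 15 of 23 alternatives), whereas Adipoq (−0.10) and Plin1 (0.13) did not pass. Lep had 4.81, 3.94, and 4.16 with –10°C/–20°C, above background on 1 of 3 arrays, against 11.02, 10.15, and 11.16 with 30°C. None of 3 Schwann cell and 4 skeletal muscle markers passed the test, although the muscle actin Acta1 had 6.72, 6.68, and 6.62 with –10°C/–20°C, against 8.84, 6.84, and 8.35 with 30°C (log2 difference −1.33, adjusted p = 0.086). The part of any of these in the collagen values was not tested.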

How the data were processed

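Total RNA of eWAT was hybridized to Affymetrix Mouse Exon 1.0 ST arrays, 3 for each of 4 temperatures. The submitters' processing notes name RMA and Affymetrix Expression Console as the tools behind the log2 values that the authors deposited. For both tools the version, and for the array the genome build, is not given in the sources used here. No further scaling was applied. Of 23332 probe sets, 14996 carried 1 symbol in the platform annotation. For the 135 genes with several probe sets the brightest was kept, and rows with more than 1 symbol or without a symbol were left out.

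The 14860 genes were fitted with limma 3.58.1 (lmFit, eBayes) in R 4.3.3 over all 12 arrays, with group contrasts, a moderated F-test, and Benjamini-Hochberg adjustment over all genes. Adjusted p-values are limma's, at a threshold of 0.05, and all tests were two-sided. Folds are 2 to the power of the log2 difference. The procedure was tested on simulated data. For arrays, their number limits the precision. Figures were drawn in Python 3.11.15 with matplotlib 3.10.9. Promoter bases came from RefSeq (GRCm38.p6), where 31 of 39 members matched.

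The members, the lists, and the comparisons were chosen with earlier results of these data known. Values on each array were given for every member that passed in a contrast, with partner chains beside it. Up to 4 genes from each pathway list were named, those with the largest change among genes past the test, most of them by the log2 difference alone. P4hb and Timp3 were named in addition after their values were seen, as were the members that did not pass. Alternatives were the methods' unpaired t-test (one-way ANOVA for 4 groups) with adjustment, a robust eBayes fit with trend, a filter on dim genes, another round of quantile normalization, median centring, fits of the 2 groups alone, all single-symbol probe sets, arrayWeights, a block for the replicate number or for how the arrays were named, at least a 2-fold change, and each array left out in turn.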

Additional observations from a re-analysis of the deposited data

How the results depend on the processing

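The arrays limit these results by their number, 3 per group, and by signal, since 3 of 39 collagen genes never exceeded background. All collagen genes that passed a comparison against 30°C were lower with the cold group under each alternative. Differences named as close to 0, which did not pass, were not followed through the alternatives. With –10°C/–20°C against 30°C (14 collagen genes), Col1a2 and Col6a1 passed under all 23 alternatives that refit or retest, whereas the call was lost in 7 for Col4a1 and Col4a5, 5 for Col5a3, 3 for Col18a1, 2 for Col15a1 and Col5a1, and 1 for each of the other 6, the methods' unpaired test. Of the other genes named, the call was lost in 15 for Loxl3 and Pparg, 13 for Timp3, 11 for Pcolce2, 7 for Ctsk, Lair1, and Wt1, 5 for Thbs2, 3 for Ppib, and in 2 or fewer for the rest. Causes were not tested.

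Requiring at least a 2-fold change left 8 collagen genes with –10°C/–20°C against 30°C. It left 0 for –10°C against 30°C (3 by limma without this limit, 11 at an unadjusted p under 0.05, against 2963 of all 14860 genes unadjusted), 3 with –10°C/–20°C against –10°C, 8 with –10°C/–20°C against 4°C, and 15 pathway genes. The methods' test with adjustment gave 2, 0, 0, 1, and 11 in the same order, with 6 and 8 collagen genes at an unadjusted p under 0.05 behind the 2 counts of 0. Over all 14860 genes, it called 369, 8, 2, and 55 lower in the comparisons of collagen genes, so that its counts of 0 say little of them. The unadjusted counts over all genes behind the 2 counts of 0 were 2537 and 2733. With only the arrays of 2 groups, the last step (–10°C/–20°C against –10°C) gave 3, with 477 of all 14860 genes lower. With arrayWeights, the last step gave 12, –10°C against 30°C gave 8, and 4°C against 30°C gave 3. The weights moved all genes too, with 1481, 870, and 573 lower in the same order, against 764, 451, and 140 without weights. Blocking on the array-name form, –10°C against 30°C gave 1, with 130 of all genes lower. The 8 arrays of the other name form, chosen after seeing the data, hold 1 array each of 30°C and 4°C, assumed to vary like the others. With these 8, the median log2 difference over the collagen genes was −0.19 with –10°C/–20°C and −0.15 with –10°C against 30°C. It was −0.27 with –10°C/–20°C against 4°C. The medians over all genes were −0.07, −0.02, and −0.03 in the same order. The 4 arrays of the first form called 0 of all 14860 genes with 4°C against 30°C, and so could call no collagen gene. At an unadjusted p under 0.05 they gave 1 collagen gene, against 2369 of all genes.

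Leaving out each array in turn gave 10 to 14 with –10°C/–20°C and 1 to 5 with –10°C against 30°C, 0 to 0 with 4°C against 30°C and with –10°C against 4°C, 1 to 10 for the last step, 8 to 13 with –10°C/–20°C against 4°C, 9 to 14 by the F-test, and 27 to 36 pathway genes. The lowest values were without 30°C replicate 3 (10), –10°C replicate 1 (1), –10°C replicate 3 or –10°C/–20°C replicate 2 (1), and –10°C/–20°C replicate 2 (8). Centring each array on its median gave 12 collagen genes with –10°C/–20°C against 30°C and repeated quantile normalization 14, all lower. Over all genes, centring turned 1639 lower and 1068 higher into 1189 lower and 1391 higher.

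With the replicate number as a block, the last step gave 10 collagen genes in place of 6, and no other count moved by over 1.5 times. Arrays of the same number had deviations that correlated between −0.39 and 0.54, over 0.1 in 11 of 18 pairs, so that the numbers were not taken to pair the arrays. The correlations differed by number, from 0.17 to 0.45 for replicate 1, −0.02 to 0.54 for replicate 2, and −0.39 to 0.41 for replicate 3. A structure shared by arrays of replicate 1 or 2 was not excluded.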

Other observations

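The same 78 genes of collagen handling were read between the other temperatures. With –10°C/–20°C against 4°C, 31 of the 78 fell and none rose, against 7.24% of all genes lower and 2.53% higher. They included the lysyl oxidases Loxl2 (−1.23, SE 0.19), Loxl1 (−1.04, SE 0.18), Loxl4 (−0.61, SE 0.14), and Loxl3 (−0.51, SE 0.10), which were named after their values were seen. With –10°C/–20°C against –10°C, 14 fell and 1 rose, Timp3 (0.68, SE 0.13, adjusted p = 0.011), against 5.14% of all genes lower and 2.02% higher. With 4°C against 30°C, 2 of the 78 fell and none rose, against 0.942% of all genes lower and 2.1% higher, namely Thbs2 (−1.97, SE 0.30, adjusted p = 0.0071) and P3h2 (−0.61, SE 0.13, adjusted p = 0.035). The call of P3h2 was lost in 14 of 24 alternatives and that of Thbs2 in 3. P3h2 had 6.86, 6.83, and 6.66 with –10°C/–20°C, 7.17, 7.57, and 7.31 with 4°C, and 8.22, 7.74, and 7.92 with 30°C.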
